A study of Mus musculus domesticus and Mus musculus domesticus x Mus musculus castaneus and Mus musculus castaneus with 10 samples.

Results

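The ribosomal protein paralogs Rpl3l, Rpl10l, Rpl22l1, Rpl39l and Rps27l were examined beside the genes they resemble, Rpl3, Rpl10, Rpl22, Rpl39 and Rps27, which are called their parents here. The 5 genes were taken by symbol from the 26808 genes of the count table, and all 5 had a row, as did all 5 parents. The data are RNA-seq read counts of 2 libraries of CAST homozygous stem cells (strain CAST/EiJ, *M. m. castaneus*). These were induced pluripotent stem cells of 1 line, reprogrammed from embryonic fibroblasts with Oct4, Sox2 and Klf4 on retroviral vectors, grown with LIF on irradiated fibroblast feeders and depleted of feeders before RNA was extracted, with no other treatment. The study set them against 129 stem cells and separately compared the alleles within the 129Cas hybrid, and the 4 libraries of each of these were not analysed here, so the comparisons below are between each paralog and its parent and between the CAST libraries, called replicate 1 and replicate 2. Nothing in the labels says that these came from separate cultures, so their spread may be technical, and since each has its own batch entry, batch and replicate cannot be told apart.

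Every ribosome carries 1 copy of most of its proteins, and in mammals nearly all of these proteins are made from a single active gene that every cell uses. Paralogs are the exceptions, additional genes whose product can stand in for the parent's in the ribosome. Rpl3l, on chromosome 17 (24727820 to 24736143 of GRCm38, plus strand), is known from heart and skeletal muscle, where it replaces Rpl3 next to the peptidyl transferase centre. Rpl10l, on chromosome 12 (66283379 to 66284401, minus strand), and Rpl39l, on chromosome 16 (10170226 to 10174911, plus strand), are known from the male germ line, where the X chromosome that carries Rpl10 and Rpl39 is silenced during meiosis. Rpl22l1, on chromosome 3 (28805436 to 28807424, plus strand), is held down by Rpl22 protein, which binds its transcript. Rps27l, on chromosome 9 (66946086 to 66949516, plus strand), is a target of the p53 tumour suppressor and encodes a small subunit protein with a zinc finger, as Rps27 does. Each parent lies on another chromosome than its paralog. These are chromosome 15 for Rpl3 (80077791 to 80091868, minus strand), X for Rpl10 (74270812 to 74273135, plus strand), 4 for Rpl22 (152325742 to 152334071, plus strand), X for Rpl39 (37082520 to 37085402, minus strand) and 3 for Rps27 (90212522 to 90213651, minus strand).

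The gene models show how the copies differ. Rpl10l had a single exon, where the principal transcript of Rpl10 had 6, and Rpl39l had its whole coding sequence in 1 exon, where that of Rpl39 was spread over 3. Rpl3l and Rpl3 had 10 exons each, Rpl22l1 and Rpl22 had 4 each, and Rps27l and Rps27 had 4 each. The coding sequences of Rpl39l and Rpl39 are shown because they encode the shortest of the proteins and because the differences between such copies are what lets a sequencing read be assigned to 1 of them. They are those of the GENCODE M21 annotation of GRCm38, the C57BL/6J reference and not the CAST genome, written 5′ to 3′ with capitals at the bases that differ from the partner.

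Rpl39l: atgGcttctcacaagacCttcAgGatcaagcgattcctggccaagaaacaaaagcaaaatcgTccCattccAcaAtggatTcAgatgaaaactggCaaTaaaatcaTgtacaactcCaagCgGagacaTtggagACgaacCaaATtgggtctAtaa
Rpl39: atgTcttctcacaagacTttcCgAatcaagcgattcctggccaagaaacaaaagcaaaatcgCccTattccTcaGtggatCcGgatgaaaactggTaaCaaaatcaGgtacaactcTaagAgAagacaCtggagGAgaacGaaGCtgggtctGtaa

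Both sequences had 156 bases, stop codon included, and differed at 23 of them. The 51 codons differed at 21 positions, and at 18 of these both codons encoded the same residue, so that 3 residues differed. The longest run of identical bases was 38. The pair of Rps27l and Rps27 is shown for the same reason and because the counts of this pair ran opposite to those of the other pairs.

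Rps27l: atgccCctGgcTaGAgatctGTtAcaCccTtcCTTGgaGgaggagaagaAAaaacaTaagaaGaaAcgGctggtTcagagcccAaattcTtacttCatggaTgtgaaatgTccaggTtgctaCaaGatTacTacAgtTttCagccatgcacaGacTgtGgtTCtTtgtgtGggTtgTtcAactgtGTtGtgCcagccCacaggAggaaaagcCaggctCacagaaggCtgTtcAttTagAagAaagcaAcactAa
Rps27: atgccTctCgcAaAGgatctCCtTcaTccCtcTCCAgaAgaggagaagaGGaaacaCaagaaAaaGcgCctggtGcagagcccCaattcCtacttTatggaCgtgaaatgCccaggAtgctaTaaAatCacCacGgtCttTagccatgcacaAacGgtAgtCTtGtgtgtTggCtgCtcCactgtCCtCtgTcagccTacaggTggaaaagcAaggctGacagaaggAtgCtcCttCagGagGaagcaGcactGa

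These had 255 bases each and differed at 61, of which 1 lay in the stop codon. Of their 84 codons 53 differed, and 50 of the 53 encoded the same residue in both genes, leaving 3 residues that differed. No more than 11 bases in a row were identical. Base identity in the coding sequence was 84.7% for Rpl10l and Rpl10, of whose 214 residues 3 differed. It was lower for Rpl3l and Rpl3, at 73.6% with 92 of 402 aligned residues different, and for Rpl22l1 and Rpl22, at 68.9% with 32 of 122 different. The germ line paralogs and Rps27l were thus nearly the same protein as their parent from clearly different bases, whereas Rpl3l and Rpl22l1 differed in protein too.

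The libraries held 14460393 counts in replicate 1 and 13728098 in replicate 2, and a level is a gene's count for each 1000000 that its library held in all (CPM), where 3 counts, taken as the limit of detection, equal 0.207 and 0.219 CPM. Intervals given below cover counting error only. Of 12 pluripotency markers 10 had a row, all above that limit, and summed to 5064 and 4049 CPM, led by Utf1 (832 and 804 CPM) and Esrrb (903 and 556 CPM). The sum includes the reprogramming factors Pou5f1 (Oct4), Sox2 and Klf4, whose reads were not separated from any reads of the vectors. The 14 fibroblast feeder markers summed to 6728 CPM in replicate 1 and 4150 CPM in replicate 2, led by the matrix genes Fn1 (2401 and 2002 CPM) and Col1a1 (1726 and 777 CPM). This list was uneven, with a median of 101 CPM. Col1a2 (825 and 273 CPM) and Sparc (756 and 706 CPM) were also high. Pdgfrb (6.15 and 6.63 CPM), Dcn (3.25 and 3.21 CPM) and Lum (2.07 and 1.31 CPM) were low. What feeders contributed to the paralogs was not tested, and in bulk RNA fewer cells of a type and less RNA per cell cannot be told apart.

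Rps27l was by far the most abundant paralog. It had 4517 counts in replicate 1 and 5323 in replicate 2, or 312 and 388 CPM, and its mean of 350.1 CPM ± 53.3 (SD, n = 2) ranked 500 among the 26808 genes. The other 4 paralogs together reached 44.4 CPM in replicate 1 and 56.0 CPM in replicate 2. Rpl22l1 had 250 and 431 counts, or 17.3 and 31.4 CPM (mean 24.3 ± 9.98, SD, n = 2). The counting intervals of its libraries did not overlap, which also held for Rps27l and for all 5 parents.

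The germ line paralogs stood lower and near each other. Rpl39l had 184 and 140 counts, or 12.7 and 10.2 CPM (mean 11.5 ± 1.79, SD, n = 2). Rpl10l had 176 and 144 counts, or 12.2 and 10.5 CPM (mean 11.3 ± 1.19, SD, n = 2). Both were slightly higher in replicate 1, the reverse of the other 3 paralogs. Rpl3l, the muscle paralog, was lowest with 32 and 54 counts, or 2.21 and 3.93 CPM (mean 3.07 ± 1.22, SD, n = 2), which is above the limit of detection in both libraries.

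**Figure D1:**
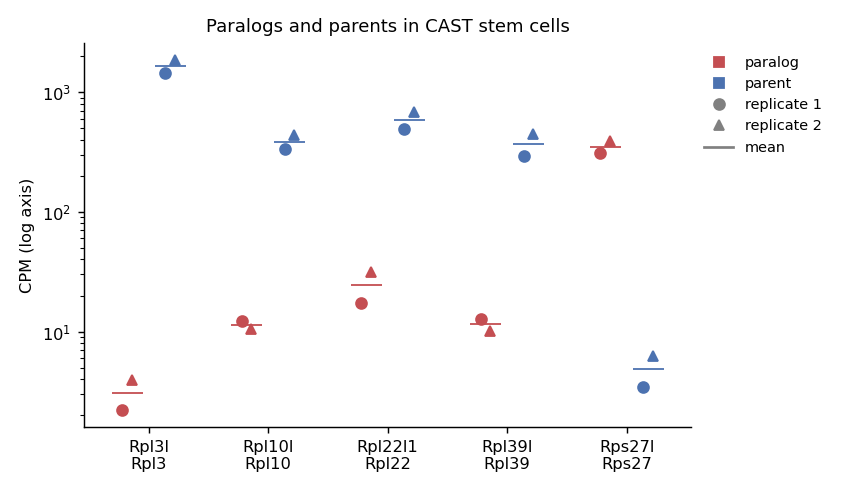
Level of each paralog (red) and its parent (blue) in CPM on a log axis, with a circle for replicate 1, a triangle for replicate 2 and a line for the mean of the libraries. In 4 pairs the parent lies above the paralog in both libraries, whereas Rps27l, at 312 and 388 CPM, lies above Rps27, at 3.46 and 6.19 CPM.

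Levels of different genes were compared per kilobase of the union of a gene's annotated exons. On this scale Rps27l had 383 CPM per kilobase in replicate 1 and 475 in replicate 2 (mean 429 ± 65.3, SD, n = 2). Rpl39l followed with 15.3 and 12.3 CPM per kilobase (13.8 ± 2.15), then Rpl22l1 with 8.69 and 15.8 (12.2 ± 5.02), then Rpl10l with 11.9 and 10.3 (11.1 ± 1.16). These neighbours did not differ beyond their spread, and their order was not the same in both libraries, since Rpl22l1 was lowest of the 3 in replicate 1 and highest in replicate 2. Rpl3l, with 1.35 and 2.39 CPM per kilobase (1.87 ± 0.741), lay below all of them in both libraries.

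The core ribosomal protein genes, the family to which the parents belong, gave the scale for these values. Of 79 such genes 74 had a row, with a median of 343 CPM per kilobase and a range from 0.299 to 1916. Rps27l lay inside this family, above 44 of the 74 genes and below 30. The nearest core gene by mean log2 level over the 2 libraries was Rps2, a small subunit protein gene, with 357 and 493 CPM per kilobase, 0.02 away on the log2 scale. Rpl10l, Rpl22l1 and Rpl39l each lay below 69 of the 74 core genes, and the nearest to all 3 was the large subunit gene Rpl7a, with 16.3 and 30.6 CPM per kilobase. Rpl3l lay below 72 core genes and above 2.

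Each paralog was then set against its own parent within each library, as a log2 ratio of counts per kilobase. For Rpl3 there were 21006 and 25426 counts, and the log2 ratio of Rpl3l to it was -8.41 in replicate 1 and -7.93 in replicate 2. The mean of -8.17 ± 0.34 (SD, n = 2) put Rpl3 288-fold above its muscle paralog, by far the widest gap among the pairs in which the parent was higher. The size of the gap depends on the measure, with -9.13 by coding length and -11.72 by the unshared sequence used later. Rpl3l made up 0.152% (95% Wilson interval 0.108% to 0.215%) and 0.212% (0.162% to 0.276%) of the summed counts of this pair.

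On this scale the other large subunit pairs lay close together. Rpl10, with 4817 and 5976 counts, was 16.8-fold above Rpl10l per kilobase (log2 ratio -4.07 ± 0.42, SD, n = 2). For Rpl22, with 7093 and 9432 counts, the distance to Rpl22l1 was 17.0-fold (-4.09 ± 0.26). In the pair of Rpl39, with 4262 and 6179 counts, it was 18.5-fold (-4.21 ± 0.66). Per kilobase of exons the mean ratios of these 3 pairs differed by less than the spread between the libraries, which did not hold for the measure of unshared sequence used later, where they were -8.08 for Rpl10l, -1.34 for Rpl22l1 and -5.56 for Rpl39l. As a share of the pair's summed counts, Rpl10l held 3.52% and 2.35%, Rpl22l1 3.40% and 4.37%, and Rpl39l 4.14% and 2.22%.

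The remaining pair went the other way. Rps27 had 50 counts in replicate 1 and 85 in replicate 2, or 3.46 and 6.19 CPM (mean 4.82 ± 1.93, SD, n = 2), ranking 71 of the 74 core genes per kilobase. Rps27l held 98.9% (95% Wilson interval 98.6% to 99.2%) of the pair's counts in replicate 1 and 98.4% (98.1% to 98.7%) in replicate 2. Its log2 ratio to Rps27 per kilobase was 6.85 and 6.32 (mean 6.59 ± 0.37, SD, n = 2), or 96.1-fold higher. This did not hold for the measure of unshared sequence used later, where the ratio was -0.05 and -0.58 (mean -0.31). The shares of the pair's counts were not corrected for unshared sequence.

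The counts of a gene can depend on how many of its reads can be placed uniquely. The study's methods state that reads mapping to more than 1 locus were discarded, but the labels name other tools, and which of them made these counts is not known. Ribosomal protein genes have many processed pseudogenes, copies of their messenger RNA pasted back into the genome. For each gene, the stretches of 75 bases in its principal transcript that no annotated transcript of another gene holds were therefore counted in the GENCODE M21 transcripts. In Rps27 only 4 of 271 such stretches were its own, or 1.48%, the lowest share among the 74 core genes, whose median was 50.8%. With stretches of 150 bases, the length of the reads, 4 of 196 were unshared. BLAST alignments of at least 75 bases that were at least 95% identical over their whole extent were found with 5 other genes, 4 of them pseudogenes, and together covered 98.8% of the Rps27 transcript.

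Rps27l differed from its parent in this respect, with 374 of 425 stretches of 75 bases (88.0%) unshared, and all of its stretches of 150 bases. The remaining 51 stretches of 75 bases were found in 3 other genes, all of them pseudogenes. When the counts were divided by the number of unshared 75-base stretches in place of exon length, the log2 ratio of Rps27l to Rps27 was -0.05 in replicate 1 and -0.58 in replicate 2, a mean of -0.31 ± 0.37 (SD, n = 2) in place of 6.59. With 150-base stretches it was 0.05 and -0.48 (mean -0.22 ± 0.37). The Rps27 side of both values rests on 4 stretches. By this measure the genes of the pair did not differ beyond the spread between the libraries, whereas Rps27 was the lower by all 3 measures of length, and whether discarded reads account for the gap was not tested.

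**Figure D2:**
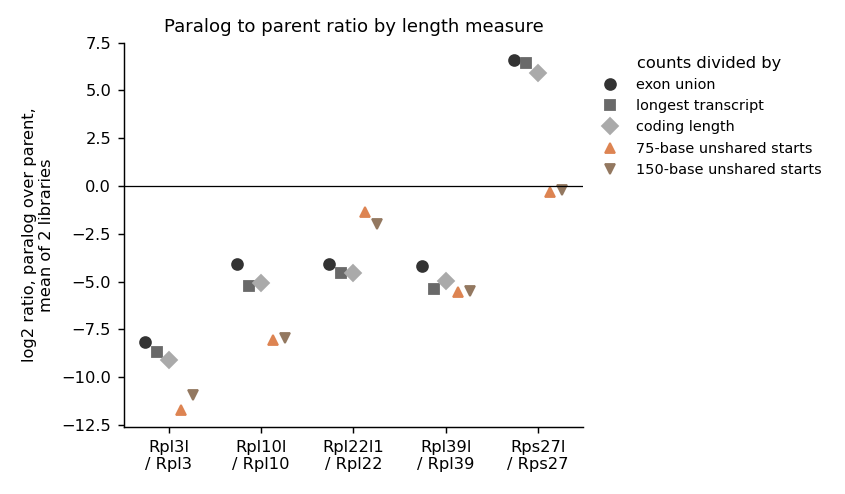
Mean log2 ratio of each paralog to its parent over the 2 CAST libraries, after dividing the counts by 3 measures of length or by the number of stretches of 75 or 150 bases found in no other gene. The ratio of Rps27l to Rps27 lies at 6.59 per kilobase of exons and at -0.31 and -0.22 per unshared stretch, and that of the other 4 pairs is below 0 by all 5 measures.

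The other pairs stayed on 1 side of equality but moved in size. Rpl3 and Rpl10 had few stretches of their own, at 16.8% and 15.1% of 75-base stretches, and shared them with 8 and 11 other genes, while Rpl3l had all of its stretches unshared and Rpl10l 99.7%. Per unshared 75-base stretch the log2 ratio went to -11.72 for Rpl3l and to -8.08 for Rpl10l, further below the parent than per kilobase. Rpl22l1 was the opposite case, with 41.4% of its stretches unshared against 98.6% in Rpl22, and its ratio went to -1.34. Its exons also share 159 bases, or 7.99%, with an antisense gene on the other strand, and the strand setting of the counting is not given in the sources used here. Rpl39l and Rpl39, at 100% and 92.4%, had a ratio of -5.56. For every pair this measure also replaced the exon union by the principal transcript, so these moves do not reflect sharing alone. The bases went from 1989 to 552 for Rpl22l1 and from 2911 to 2051 for Rpl22. They went from 831 to 805 for Rpl39l and from 1434 to 612 for Rpl39.

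No paralog shared a stretch of 75 bases with its own parent. In this annotation no read of that length from the principal transcript of one would match the other without error. The CAST sequence itself was not examined. Among the paralogs, Rpl3l and Rpl39l had no stretch of 75 bases in common with any other gene.

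**Figure D3:**
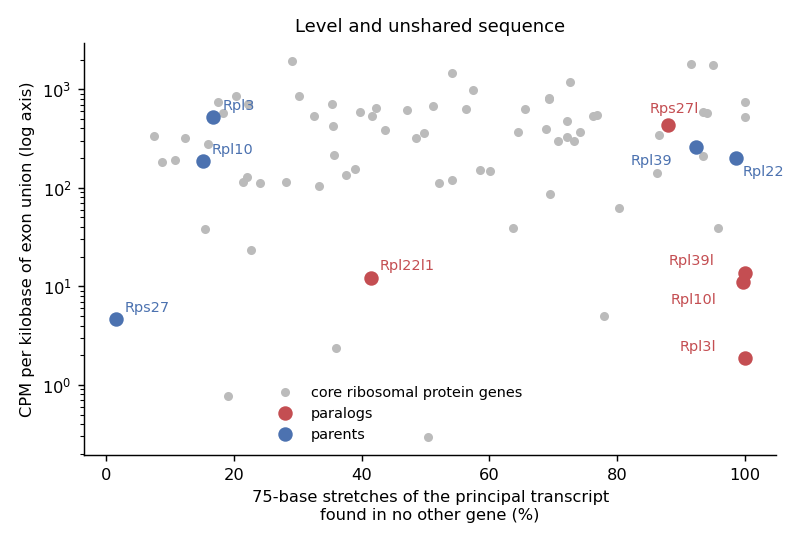
Level in CPM per kilobase of exons (log axis, mean of the 2 CAST libraries) against the percentage of 75-base stretches of the principal transcript found in no other gene, for 74 core ribosomal protein genes (grey), the 5 parents among them (blue) and the 5 paralogs (red). Rps27 sits at the left edge with 1.48%, while Rpl3l, Rpl10l and Rpl39l lie at or near 100% with 1.87 to 13.8 CPM per kilobase.

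The ratio of replicate 1 to replicate 2 was computed for all 13824 genes with at least 10 counts in total, with TMM scaling and a pseudocount of 0.5 CPM. With 1 library on each side there is no test, so that the share of all genes is given beside each count. Of the 5 paralogs 0 were at least 2-fold apart, against 9.11% of all genes in either direction and 4.13% in the direction of replicate 2. The 95% counting interval of the ratio, formed without the pseudocount, excluded equality for 3 of 5 paralogs, against 57.1% of all genes. In those 3 it lay on the side of replicate 2, as it did for 28.5% of all genes. The share of intervals excluding equality was near its background, and nothing is read from the other counts.

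Rpl22l1 differed most between the libraries, being 1.87-fold higher in replicate 2 (log2 ratio -0.90, interval -1.15 to -0.69). Rpl3l had a log2 ratio of -0.76 (-1.57 to -0.23) and Rps27l one of -0.37 (-0.43 to -0.31). Rpl10l, at 0.15 (-0.17 to 0.48), and Rpl39l, at 0.25 (-0.06 to 0.59), were higher in replicate 1 by less than counting error. For comparison, 90% of all genes lay between log2 ratios of -0.91 and 1.00.

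The parents were more alike. All 5 were higher in replicate 2, with log2 ratios of -0.41 for Rpl3, -0.44 for Rpl10, -0.54 for Rpl22, -0.67 for Rpl39 and -0.81 for Rps27, and 0 were 2-fold apart. Of the 73 core genes with enough counts all 73 were higher in replicate 2, with a median of -0.49, and with library totals in place of TMM 72 of them were, with a median of -0.43. The median of all genes was 0.004. Other lists lay on the other side, with a median of 1.00 for the fibroblast feeder markers, 12 of 14 higher in replicate 1 and 7 of them past 2-fold, and 0.39 for the pluripotency markers, 8 of 10 higher in replicate 1. Their part in the ratios of the paralogs and parents was not tested.

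Because both genes of a pair are read from the same library, the change in their ratio does not depend on the scaling. The log2 ratio of Rpl39l to Rpl39 was 0.93 higher in replicate 1 than in replicate 2 (95% counting interval 0.61 to 1.25), and that of Rpl10l to Rpl10 was 0.60 higher (0.28 to 0.92). The parents Rpl39 and Rpl10 were higher in replicate 2, while these paralogs themselves did not differ beyond counting error. The ratio of Rpl22l1 to Rpl22 went the other way, being 0.37 lower in replicate 1 (-0.60 to -0.15 for the difference), so that the paralog and the parent were both higher in replicate 2 and the paralog by more. For Rps27l the difference was 0.53 (0.02 to 1.04), with an interval that nearly reached 0. That of Rpl3l was -0.48 (-1.11 to 0.15) and was not detectable at this depth.

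**Figure D4:**
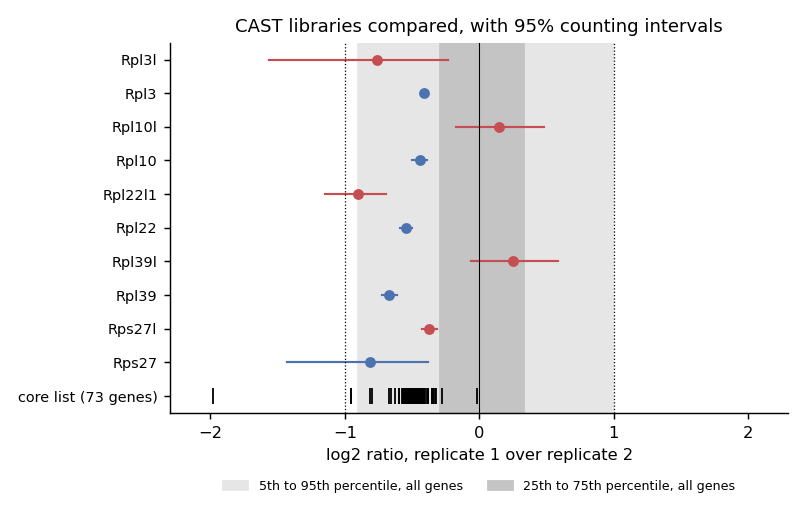
Log2 ratio of replicate 1 to replicate 2 with TMM scaling for each paralog (red) and parent (blue), with 95% counting intervals as lines, above the 73 core genes (ticks), with grey bands for the spread of all genes and dotted lines at 2-fold. The 5 parents lie left of 0 at -0.41 to -0.81, whereas Rpl10l and Rpl39l lie at 0.15 and 0.25 with intervals that include 0.

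Genes of the cell types and pathway in which the paralogs are known were read beside them. Of 11 striated muscle markers, for Rpl3l, 2 were at or under 3 counts in both libraries, and the list summed to 94.5 CPM in replicate 1 and 120 CPM in replicate 2. Most of this was the giant sarcomere gene Ttn, at 57.1 and 53.8 CPM, and the sarcomere crosslinker Actn2, at 19.5 and 41.6 CPM. The calcium channel gene Ryr1 had 12.6 and 17.6 CPM and the cardiac troponin gene Tnni3 had 2.21 and 3.21 CPM. The other 7 markers, Myh6, Myh7, Tnnt2, Ckm, Myog, Mb and Myh1, had at most 16 counts in a library, with 0 and 2 counts for Mb (myoglobin) and 1 and 0 counts for Myh1 (a fast myosin). In CPM per kilobase of exons, the mean of the libraries was 0.475 for Ttn, 0.692 for Ryr1 and 1.31 for Tnni3. These lay below the 1.87 ± 0.741 (SD, n = 2) of Rpl3l, whereas Actn2, at 8.05, lay above it. The median of the 11 markers on this scale was 0.136. What muscle-like cells contributed to Rpl3l was not tested.

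The 12 male germ cell markers, for Rpl10l and Rpl39l, summed to 521 and 1042 CPM, most of it the germ cell RNA-binding protein Dazl, at 422 and 863 CPM. Sycp1, a protein of the synaptonemal complex, had 23.2 and 75.7 CPM. All 7 markers with enough counts were higher in replicate 2 under each of 4 scalings. With TMM scaling so were 6861 of all 13824 genes and all 73 core genes with enough counts. Rpl10l and Rpl39l did not differ between the libraries beyond counting error. Ddx4, a germ cell RNA helicase, had 31.5 and 42.4 CPM, and the meiotic recombinase gene Dmc1 had 30.2 and 40.6 CPM. The meiotic genes Stra8 (6.15 and 11.4 CPM) and Sycp3 (7.19 and 8.30 CPM) were lower, and Spo11 had 5 and 7 counts. The markers Tnp1, Prm1, Pgk2 and Acr had 0 to 2 counts in each library, at or under the limit of detection, and Prm2 had 1 and 5 counts. The part of germ cell transcripts in the levels of Rpl10l and Rpl39l was not tested.

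For Rps27l, 19 of 20 p53 targets had a row, and 12 were higher in replicate 1 and 7 in replicate 2, with a median log2 ratio of 0.11 beside the -0.37 of Rps27l. Ccng1, a cyclin induced by p53, had 479 and 412 CPM, and Trp53inp1, a p53 cofactor gene, 466 and 361 CPM. The part of p53 in the level of Rps27l was not tested. The share that was higher in replicate 1 moved between 11 and 13 of 19 with the scaling.

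Of 3 other ribosomal protein paralogs listed, Rpl36al had a row, and Rpl7l1 and Rps4l were not analysed here. Rpl36al, on chromosome 12 (69182731 to 69184083, minus strand), encodes the same residues as its parent Rpl36a at all 106 codons, although 38 codons differ in base sequence. It had 1808 and 1838 counts, or 125 and 134 CPM (mean 129 ± 6.26, SD, n = 2), against 779 and 997 counts, or 53.9 and 72.6 CPM, for Rpl36a. Rpl36al was 2.53-fold above its parent per kilobase (log2 ratio 1.34 ± 0.23), the other pair in which the parent was the lower. Of its 75-base stretches 38.7% were unshared, against 15.4% in Rpl36a, and per unshared stretch the log2 ratio was -0.26 in replicate 1 and -0.59 in replicate 2 (mean -0.43 ± 0.23, SD, n = 2), with the parent the higher in both libraries. The difference in this ratio between the libraries was 0.33 (0.17 to 0.50), in the same direction as for Rpl10l and Rpl39l. Rpl36al shares 24.5% of its exonic bases with another gene on its strand, so that its level is uncertain.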

How the data were processed

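Poly(A) RNA libraries of CAST homozygous stem cells were sequenced as paired-end reads. The authors deposited counts of reads per gene without normalization. The submitters' processing notes name TopHat2 2.1.1, SAMtools, HTSeq and the build GRCm38 for these libraries, and the paper names STAR, the genome of each strain and the removal of reads mapping to more than 1 locus. Which of these made the deposited counts was not settled. The labels and the paper name different RNA kits. Of the table's columns 2 were used. The names of 7 others match no listed sample, and these were left out.

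The members and lists were chosen with earlier results of these data known. Genes named were the 5 members, their parents, other listed paralogs, the core gene nearest to each member in mean log2 level and the 2 most abundant genes of each further list. The other markers of fibroblast feeders, striated muscle and male germ cells were named after their values were seen. The core gene nearest to Rpl3l is not reported here.

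Symbols (26807 of 26808), lengths and transcripts came from GENCODE M21. CPM used library totals. Ratios between the libraries were formed for genes with 10 or more counts, after TMM scaling (edgeR 4.0.16, R 4.3.3) and addition of 0.5 CPM. Pair ratios used counts per kilobase of exon union, with no pseudocount, and their counting intervals the normal approximation on the log scale. Near copies of Rps27 were found with BLAST 2.17.0. Alternatives were other scalings (DESeq2 1.42.0 size factors, unscaled totals, TMM without cytosolic ribosomal protein genes), pseudocounts, filters, lengths and each library left out. The ratio script was tested on simulated data. Other steps ran in Python 3.11.15 with Biopython 1.88, scipy 1.17.1, pandas 2.3.3, numpy 2.4.6 and matplotlib 3.10.9.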

Additional observations from a re-analysis of the deposited data

How the results depend on the processing

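No paired analysis was possible because the 2 CAST libraries form 1 group, with no second group to share replicate numbers. The levels of the 5 paralogs moved by less than 1 SD with each of the other library totals. Leaving out 1 of 2 libraries returns the value of the other and is no check of stability.

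The paralog to parent ratios, as log2, moved with the measure of length. For Rpl3l (-8.17) the ratio was -8.67 with the longest transcript, -9.13 with coding length and -9.12 with no length. In the same order it was -5.21, -5.07 and -5.07 for Rpl10l (-4.07), -4.53, -4.57 and -4.64 for Rpl22l1 (-4.09), and -5.39, -5.00 and -5.00 for Rpl39l (-4.21). For Rps27l (6.59) coding length gave 5.91, where the longest annotated coding sequence, 318 bases, is not the one printed. For Rpl36al (1.34), whose alternatives were run after seeing the data, the values were 0.40, 1.05 and 1.05. Division by unshared stretches was chosen after seeing the data. With 75 and 150 bases it gave -11.72 and -10.93 for Rpl3l, -8.08 and -7.96 for Rpl10l, -1.34 and -2.01 for Rpl22l1, -5.56 and -5.50 for Rpl39l, -0.31 and -0.22 for Rps27l, and -0.43 with both for Rpl36al. The sign of the mean turned for Rps27l, where the new values lay within 1 SD (0.37) of 0, and for Rpl36al, where both libraries turned, and for none of the other 4. The lengths used are the cause by construction. Adding 1 count moved no ratio by over 1 SD.

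The replicate ratios of the paralogs kept their sign with the 3 other scalings. The other alternatives could not turn a sign. With library totals, which move all genes alike, that of Rps27l was -0.31 and the core median -0.43. The share of genes 2-fold apart was 3.91% with a pseudocount of 2 CPM and 13.1% with 0.1 CPM, which act on low counts. The counts of Rpl3l and Rps27 limit what their ratios can show.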
